A study of Homo sapiens with 6 samples.

Results

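CDX2 and 8 further genes of intestinal epithelium were followed in H1048, a human line from small cell lung cancer that carries the tuft cell factor POU2F3, and 7 of the 9 had a row among the 16953 genes of the authors' deposited table. The 9 were chosen by gene symbol with the deposited fold changes and p-values already known, so their values are a description and carry no test of their own. CDX1 and HNF4A had no row and were not analysed here. The members with a row were the transcription factors CDX2, GATA6, GATA4 and HNF4G and the effector genes CDH17, VIL1 and SI, all of which had an adjusted p.

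Wild-type H1048 cells were exposed for 48 h to ISP-I (isovalerylspiramycin I, a macrolide) at 10 µM in 3 samples or to DMSO, the solvent, in 3 samples, and RNA was sequenced from each. The authors compared libraries D to F with libraries A to C, and the sources used here do not give which of these sets received ISP-I. Every direction below is therefore that of libraries D to F, with A to C as the base, and cannot be read as an effect of the compound or of its solvent. Levels per library, their spread and standard errors are not given, because the labels do not say which sample a library letter stands for. All cells came from 1 line, and in such bulk RNA fewer cells of a type and less RNA per cell cannot be told apart.

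In the intestine, CDX2 and CDX1 are homeodomain factors that set and keep intestinal identity, and they act with the GATA factors GATA4 and GATA6 and with the nuclear receptors HNF4A and HNF4G on genes of absorptive cells. Villin (VIL1), which bundles the actin of microvilli, sucrase-isomaltase (SI), which splits dietary sugars at the brush border, and the adhesion protein CDH17 (LI-cadherin) are classical products of these cells. CDX2 is known to bind the promoters of SI and CDH17.

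CDX2 and CDH17 were far higher in libraries D to F, GATA6 was slightly higher, SI was far lower, and VIL1, GATA4 and HNF4G were not called in the authors' deposited table. The members thus divided into 3 higher, 1 lower and 3 not called, at an adjusted p under 0.05. Over the 15976 genes that the authors' deposited table gives an adjusted p, 29.7% were higher, 27.9% lower and 57.6% called in either direction by the same rule. The log2 fold changes of the members ran between -4.84 and 6.60 with a median of 0.59 in the authors' deposited table, against a median of 0.05 over all genes with an adjusted p. Nothing is read from these counts, since the members were picked on this contrast.

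**Figure D1:**
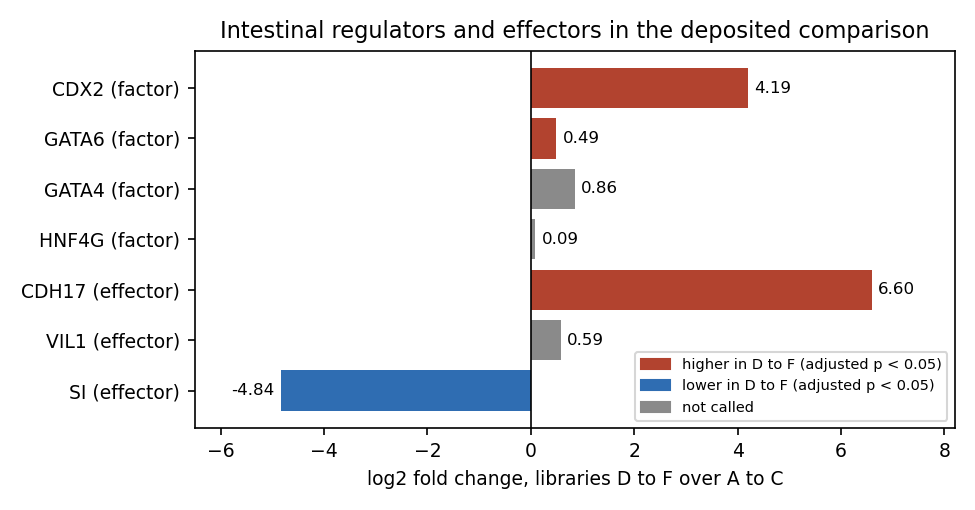
Log2 fold change of libraries D to F over A to C (horizontal axis) for the 7 measured members, transcription factors above and effector genes below, as bars coloured by the call at an adjusted p under 0.05. CDX2 (4.19) and CDH17 (6.60) extend far to the right and SI (-4.84) far to the left, while VIL1, GATA4, GATA6 and HNF4G lie between 0.09 and 0.86; the deposited values have no error bars.

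CDX2 (ENSG00000165556) lies on the minus strand of chromosome 13, 27962137 to 27971139, in GENCODE release 29 on GRCh38. In the authors' deposited table it was 18.3-fold higher in libraries D to F (log2 fold change 4.19), with a p and an adjusted p listed at 0. Only 10 genes of the authors' deposited table have a p listed at 0, below the smallest value otherwise held there, 1.46e-295. By fold change CDX2 stood at rank 277 from the highest of those 15976 genes in the authors' deposited table. The plot of fold change against p shows it apart from the other members, at the top of the p scale.

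The start region of CDX2 is shown because its own family's motif can be looked up in it and in that of SI, the member that went the other way. The RefSeq promoter window (GRCh38.p14; 250 bases before to 50 after the gene start, minus strand, chr13:27969266-27969565) reads 5′ to 3′ as follows, with capitals marking ATAAA or its reverse complement TTTAT, the core letters that CDX factors bind.
CDX2: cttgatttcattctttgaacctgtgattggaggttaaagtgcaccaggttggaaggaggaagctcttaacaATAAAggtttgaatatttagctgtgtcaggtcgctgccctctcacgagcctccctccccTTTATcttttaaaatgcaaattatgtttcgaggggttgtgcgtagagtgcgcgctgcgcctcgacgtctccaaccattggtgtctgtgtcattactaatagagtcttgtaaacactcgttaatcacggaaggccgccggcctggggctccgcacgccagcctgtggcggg

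The CDX2 window held 2 matches, which begin at positions -179 and -120 from the gene start. The second, on the strand opposite to the gene, overlaps a match to AGATAA, the GATA motif, on that same strand. The RefSeq start of CDX2 used for this window lies inside the gene as GENCODE release 29 bounds it. A match to these letters is a description and not a bound site.

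GATA6 (ENSG00000141448; chromosome 18, 22169443 to 22202528, plus strand), a zinc finger factor of endoderm, was 1.41-fold higher in libraries D to F (log2 fold change 0.49, adjusted p = 0.000764 by the authors' deposited table). Antisense genes overlap GATA6 on the opposite strand in GENCODE release 29, and the sources used here do not say whether reads were counted by strand, so reads of either cannot be told apart.

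The RefSeq window of GATA6 (GRCh38.p14, plus strand, chr18:22169339-22169638) is given for comparison with that of CDX2, with the same capitals.
GATA6: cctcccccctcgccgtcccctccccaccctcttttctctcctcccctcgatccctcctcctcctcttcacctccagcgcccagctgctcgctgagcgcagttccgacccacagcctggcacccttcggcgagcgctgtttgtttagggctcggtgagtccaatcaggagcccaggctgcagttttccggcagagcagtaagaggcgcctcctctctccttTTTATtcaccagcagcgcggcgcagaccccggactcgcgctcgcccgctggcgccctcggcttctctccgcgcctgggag

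It held 1 match, which begins at position -30 from the gene start, in a stretch that is 66.67% G and C, against 50.33% for the CDX2 window and a median of 58.67% over all promoter windows.

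The relative of GATA6, GATA4 (ENSG00000136574; chromosome 8, 11676959 to 11760002, plus strand), which marks the proximal small intestine, had a larger log2 fold change of 0.86 in the authors' deposited table and was not called (adjusted p = 0.424). HNF4G (ENSG00000164749; chromosome 8, 75407914 to 75566843, plus strand), the nuclear receptor that acts with HNF4A in enterocytes, had a log2 fold change of 0.09 and was not called (adjusted p = 0.657 by the authors' deposited table).

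Among the effector genes, VIL1 (ENSG00000127831; chromosome 2, 218419092 to 218453295, plus strand) had a log2 fold change of 0.59 and was not called (adjusted p = 0.464 by the authors' deposited table). The protease gene USP37, which overlaps VIL1 on the opposite strand, had a log2 fold change of 0.64 and was higher in the authors' deposited table, and without a stated use of strand the reads of both cannot be told apart. The villin relatives had other values: VILL, a villin-like gene named after its value was seen, was at 2.32 and higher (adjusted p = 0.0012), and advillin AVIL, a tuft cell product, at -2.31 and lower in the authors' deposited table. No difference between these genes was tested.

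SI (ENSG00000090402; chromosome 3, 164978898 to 165078495, minus strand) was the only member called lower. In the authors' deposited table SI was lower by 28.5-fold in libraries D to F (log2 fold change -4.84, adjusted p = 1.03e-20), which is rank 11 from the lowest. Its window is shown because SI is a known CDX2 target, and CDX2 and SI moved in opposite directions. The RefSeq window (GRCh38.p14, minus strand, chr3:165078447-165078746) has the CDX letters in capitals.
SI: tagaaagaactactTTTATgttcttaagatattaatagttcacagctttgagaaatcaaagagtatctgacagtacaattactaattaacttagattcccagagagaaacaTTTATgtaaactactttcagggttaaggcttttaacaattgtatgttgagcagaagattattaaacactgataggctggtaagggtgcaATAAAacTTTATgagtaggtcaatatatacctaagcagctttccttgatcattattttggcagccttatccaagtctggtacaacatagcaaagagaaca

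The SI window held 4 matches, which begin at positions -236, -139, -50 and -43 from the gene start, the last pair on opposite strands. It is 32.67% G and C, and none of its matches lies in TATAAA, the TATA box letters, which contain ATAAA. Over the 34796 RefSeq windows, 35% held at least 1 match to ATAAA on either strand, 14.5% at least 2 and 2.68% at least 4. By the calls of the authors' deposited table, 24.9% of the windows of genes higher in libraries D to F, 23.7% of those of lower genes and 26.6% of those of genes not called held a match. The CDX2, SI and GATA6 windows held no match to CAAAGTCCA, the HNF4 motif, which 0.385% of all windows hold.

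CDH17 (ENSG00000079112; chromosome 8, 94127171 to 94217303, minus strand), a cadherin of the intestinal lateral membrane, had the largest fold change of the members. In the authors' deposited table it was 96.7-fold higher in libraries D to F (log2 fold change 6.60, adjusted p = 1.67e-16), at rank 48 from the highest. By p it stood at rank 2077 in the authors' deposited table, whereas CDX2 shared the top with the other genes listed at 0. A log2 fold change of 4 or more was held by 315 genes of the authors' deposited table and one of -4 or less by 41. A processed pseudogene on the same strand overlaps CDH17 in GENCODE release 29 and has no row.

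**Figure D2:**
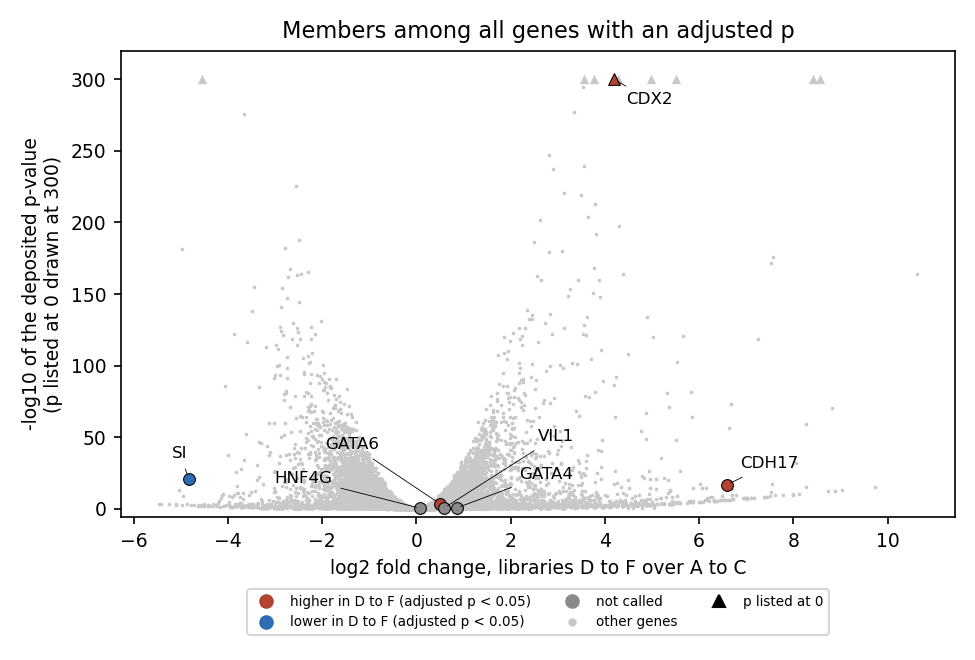
Log2 fold change of libraries D to F over A to C (horizontal axis) against -log10 of the deposited p (vertical axis, with a p listed at 0 drawn at 300) for all genes with an adjusted p in grey and the 7 members in colour. CDX2 is drawn at the top, CDH17 (6.60) and SI (-4.84) lie at opposite ends of the fold scale at much larger p, and VIL1, GATA4, GATA6 and HNF4G lie near the bottom centre.

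The genes around CDX2 were higher together with it. CDX2 is part of the ParaHox cluster, in which it neighbours the homeobox genes PDX1, a factor of pancreas and duodenum, and GSX1, a factor of neural development. In the authors' deposited table, all 6 measured protein-coding genes within 250 kb of CDX2, gene edge to gene edge, were higher in libraries D to F, as were all 3 within 100 kb and all 8 within 500 kb, beside the 29.7% of genes higher overall. The neighbours were chosen by position alone, though from the contrast that CDX2 itself was picked on.

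GSX1 had the largest change of the region, 166-fold higher (log2 fold change 7.37, adjusted p = 2.36e-08 by the authors' deposited table). PDX1, whose nearer edge lies 35.9 kb from CDX2, was 3.19-fold higher (1.68, adjusted p = 6.33e-30 by the authors' deposited table). The uric acid pathway gene URAD, next to CDX2 on its other side, had a log2 fold change of 4.26, close to that of CDX2, at an adjusted p = 0.0408 by the authors' deposited table, near the threshold.

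Receptor kinase genes of the region were also higher in the authors' deposited table, with FLT3 at a log2 fold change of 1.37 (adjusted p = 6e-05) and the VEGF receptor FLT1 at 3.46 (adjusted p = 4.14e-31). The deadenylase cofactor PAN3 (0.39), the RNA polymerase subunit gene POLR1D (0.69) and the ubiquitin ligase LNX2 (1.63) were higher too in the authors' deposited table. The size of the change did not fall evenly with distance from CDX2, since PDX1 was nearer than GSX1 and changed less.

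The run of genes higher in libraries D to F, traced after these values were seen, held 10 measured genes over 1133.0 kb. It ended at the mitochondrial initiation factor MTIF3, which was not called (log2 fold change -0.25, adjusted p = 0.189 by the authors' deposited table), and beyond the proteasome assembly gene POMP (0.41, higher) at the lysosomal transporter SLC46A3, which was lower (-1.13, adjusted p = 6.39e-07 by the authors' deposited table). Of 3082 genes higher in libraries D to F with 8 or more such neighbours within 500 kb, 3 (0.0973%) had every neighbour higher in the authors' deposited table, namely CDX2, URAD and FLT3, all of this region. The minimum of 8 equals the number of such neighbours that CDX2 itself has within 500 kb. These windows also overlap, so the share is a description and does not measure how rare the region is.

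**Figure D3:**
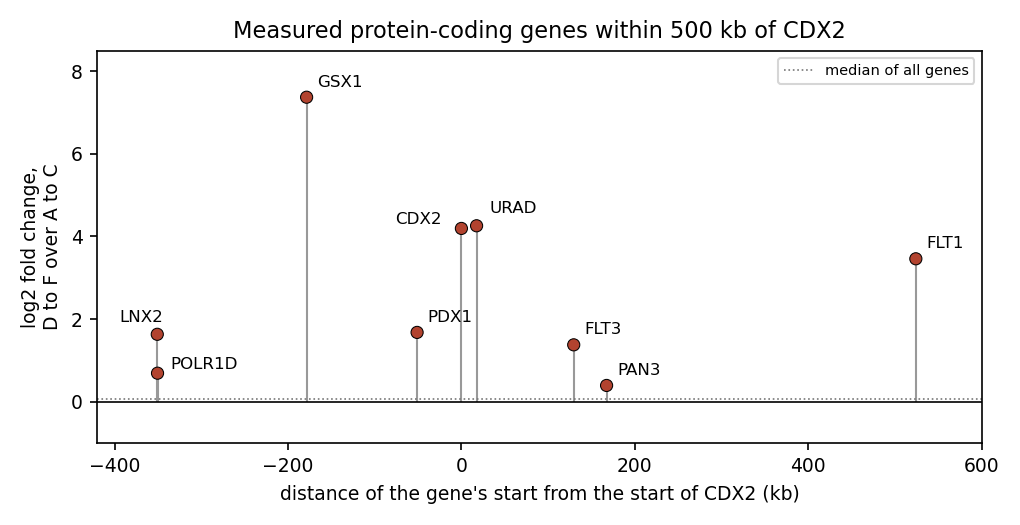
Log2 fold change of libraries D to F over A to C (vertical axis) of CDX2 and the 8 measured protein-coding genes within 500 kb, by the distance in kb of each gene's start from that of CDX2 (horizontal axis); the dotted line is the median of all genes. All points lie above 0 and are called higher, from PAN3 at 0.39 to GSX1 at 7.37.

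Around the other members, no window of 250 kb with measured neighbours was higher throughout in the authors' deposited table, while the single measured neighbour of CDH17 within 100 kb was higher. Of 15 measured genes within 250 kb of VIL1, 4 were higher and 4 lower, and of 4 around CDH17, 2 were higher and none lower. Around GATA4 none of 4 genes with an adjusted p was higher and 1 was lower in the authors' deposited table. SI and HNF4G had no measured neighbour within 250 kb, and GATA6 had none with an adjusted p. Around the absent members, CDX1 had 1 neighbour higher and 2 lower of 8, and HNF4A 2 higher and 3 lower of 8, in the authors' deposited table.

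The other transcription factors of intestinal epithelium were called in both directions, and CDX2 had the largest fold change among them. Of 25 measured factors in the list, CDX2, GATA6, GATA4 and HNF4G included, 10 were higher and 2 lower in the authors' deposited table, with a median log2 fold change of 0.82, against 0.05 over all genes with an adjusted p. Beside this list and those below stand 29.7% higher and 27.9% lower over all genes with an adjusted p. No list was tested against these shares. The Krüppel-like factors KLF5 (1.54) and KLF4 (1.18), PDX1 (1.68), the repressor PRDM1 (2.48), FOXA3 (3.68), MAF (0.54), ID1 (0.81) and the coactivator PPARGC1A (0.90) were higher in the authors' deposited table. ONECUT2 (-1.20) and the nuclear receptor ESRRA (-0.59) were lower in the authors' deposited table.

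The remaining 11 factors were not called in the authors' deposited table. Among them the homeobox factor ISX, a known CDX2 target in the gut, had a log2 fold change of 3.60 (adjusted p = 0.133) and the bile acid receptor NR1H4 one of 3.52 (adjusted p = 0.0698 by the authors' deposited table). FOXA2 (1.05), CREB3L3 (0.82), VDR (0.36), FOXA1 (0.14), TCF7L2 (-0.11) and ELF3 (-0.27) were also among them in the authors' deposited table.

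Relatives and cofactors of the CDX, GATA and HNF4 factors were 6 higher and 1 lower of 12 with an adjusted p in the authors' deposited table (median 1.07). GATA3 (3.15) and GATA2 (1.45), which act in trophoblast and blood rather than gut, had larger log2 fold changes than GATA4 and GATA6, and GATA5, a gut factor, was at 0.36 and not called in the authors' deposited table. The GATA cofactors ZFPM2 (1.51) and ZFPM1 (0.69) were higher in the authors' deposited table, as were PDX1 and GSX1. PDX1 and GSX1 are also counted above as neighbours of CDX2, and PDX1 in the list of intestinal factors, so these counts share genes. The retinoid receptor RXRA (-0.95) was lower in the authors' deposited table. NCOA2 (-0.18), PPARGC1B (-0.05), TBX5 (0.0011) and NR0B2 (3.12) were not called, and GATA1 had no adjusted p in the authors' deposited table.

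Digestive hydrolases of the brush border were called in both directions, with 3 higher and 2 lower of 15 with an adjusted p (median 0.18 in the authors' deposited table). These are 20% and 13.3%, beside 29.7% and 27.9% over all genes with an adjusted p. The aminopeptidase ANPEP (5.01), the transpeptidase GGT1 (1.91) and the peptidyl dipeptidase ACE (1.58) were higher, and the endopeptidase MME (-1.72) was lower with SI in the authors' deposited table. MGAM, the maltase closest to SI in kind, was at 3.00 (adjusted p = 0.15) and lactase LCT at 1.58 (adjusted p = 0.0921), neither called in the authors' deposited table. NAALADL1 (4.11), ENPEP (-2.89), ALPI (-2.86), MEP1B (-0.64), ALPL (0.18), TREH (-0.17) and TMPRSS15 (-0.06) were also not called, and DPP4 and MEP1A had no adjusted p in the authors' deposited table.

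Brush border genes, VIL1 included, were 5 higher and 5 lower of 19 with an adjusted p (median -0.18 in the authors' deposited table). This is 26.3% in each direction, near the 29.7% and 27.9% over all genes with an adjusted p. EPS8L2 (-0.825), the microvillar protocadherin CDHR2 (-1.34) and CALML4 (-0.78) were lower and ezrin EZR (0.53) higher in the authors' deposited table. The brush border myosins MYO1A (4.19) and MYO7B (3.92), named after their values were seen, were higher in the authors' deposited table. Genes of enterocyte absorption were 6 higher and 3 lower of 16 (median 1.07 in the authors' deposited table), with the sterol transporter NPC1L1 at 5.35 and CA2 at 1.48 higher, and the iron exporter SLC40A1 (-2.06) and the bile acid binding protein FABP6 (-3.81) lower.

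Intestinal surface and colon markers, among which CDH17 had the largest fold change, were 7 higher and 3 lower of 15 with an adjusted p (median 0.93 in the authors' deposited table). The keratins KRT8 (1.24) and KRT18 (1.12) and the claudin CLDN3 (1.66) were higher and CEACAM1 (-3.73) lower in the authors' deposited table. The other genes called higher there were CDH17, itself picked on this contrast, CLDN15 (1.69), EPCAM (0.55) and CLDN7 (0.335). MUC3A (-2.03) and MUC13 (-0.57) were the others called lower in the authors' deposited table.

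Markers of the other intestinal cell types gave mixed counts. Goblet and Paneth genes were 4 higher and none lower of 8 with an adjusted p in the authors' deposited table, namely LYZ (4.90), AGR2 (2.59), SPDEF (4.22) and FOXA3 (3.68), and 12 of the 22 genes listed had no row. Enteroendocrine genes were 4 higher, CCK (7.51), CHGB (4.38), INSM1 (1.81) and TPH1 (1.23), and 1 lower of 10 in the authors' deposited table. Stem cell genes were 5 higher, CD44 (1.73) and TERT (1.88) among them, and 5 lower, SOX9 (-1.25) and MYB (-1.33) among them, of 17 in the authors' deposited table. That is 29.4% in each direction, close to the 29.7% and 27.9% over all genes with an adjusted p. Tuft cell genes, the identity of this line, were 1 higher and 7 lower of 18, with AVIL (-2.31), POU2F3 (-1.71) and KIT (-1.96) lower in the authors' deposited table.

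**Figure D4:**
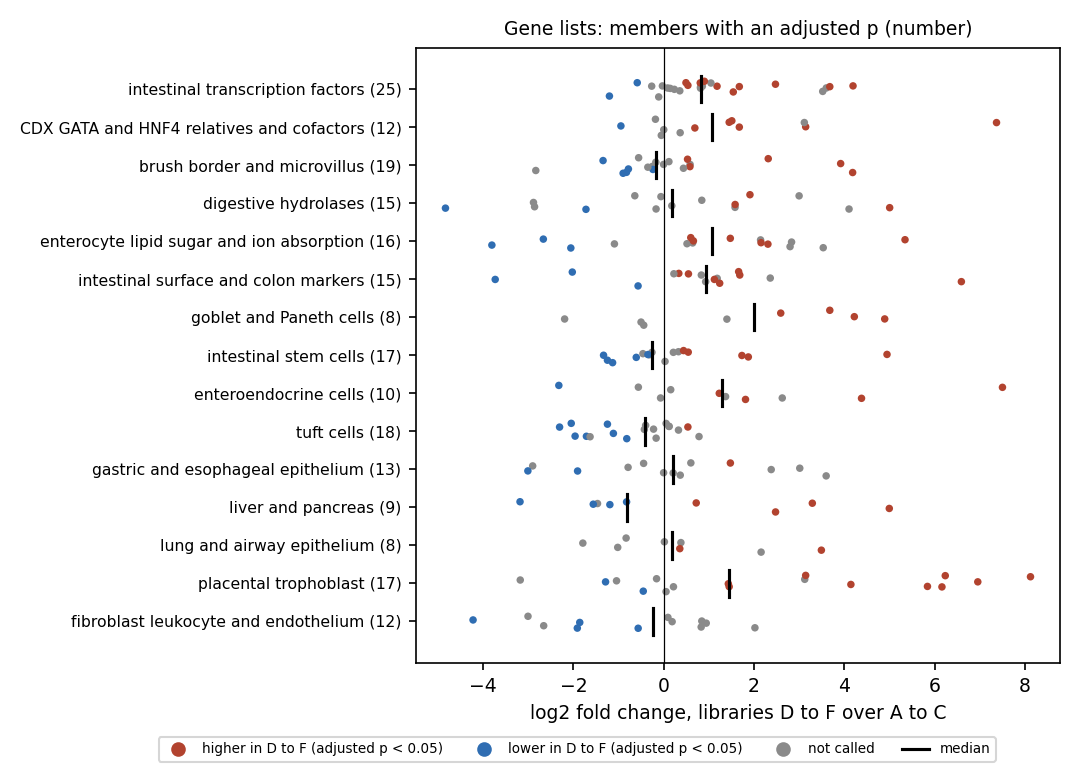
Log2 fold change of libraries D to F over A to C (horizontal axis) of each gene with an adjusted p in 15 lists, as points coloured by the call at an adjusted p under 0.05, with the median of each list as a black bar and the number of genes in brackets. The medians run between -0.82 (liver and pancreas) and 2.00 (goblet and Paneth cells), and most lists hold points on both sides of 0.

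Genes of other epithelia and tissues were called in both directions beside the members. Placental trophoblast genes were 9 higher and 2 lower of 17, with INSL4 (8.13), CYP19A1 (5.84), GATA3 and GATA2 higher in the authors' deposited table. Liver and pancreas genes were 4 higher, ALB (3.29) and TF (2.48) among them, and 4 lower, CPS1 (-1.19) and PROX1 (-0.82) among them, of 9 in the authors' deposited table. Gastric and esophageal genes were 1 higher, TP63 (1.48), and 2 lower, CLDN18 (-1.91) and KRT13 (-3.01), of 13, while KRT14 (3.01) was not called in the authors' deposited table.

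Lung and airway genes were 2 higher, FOXJ1 (3.49) and LAMP3 (0.36), and none lower of 8, with MUC5B (-1.79) and SFTPC (2.16) not called in the authors' deposited table. Fibroblast, leukocyte and endothelial genes were 4 lower, PDGFRA (-1.91), COL1A1 (-0.57), PDGFRB (-1.86) and LUM (-4.22), and none higher of 12 in the authors' deposited table. Whether these lists bear on the values of CDX2, CDH17 and SI was not tested.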

How the data were processed

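H1048 RNA from 6 samples was sequenced; hg38, STAR, Trimmomatic, HTSeq and DESeq2 are listed, with no versions, per the submitters' processing notes. Per the file headers, the deposited values per gene are a log2 fold change of libraries D to F over A to C, its p-value and the adjusted p-value; the sources used here do not give strand use, annotation or shrinkage of folds. Columns that hold single libraries, 36 over both tables, stayed unused because the labels do not say which sample a letter stands for; depth, SDs and a test over samples are therefore not given, and the spread behind the deposited p-values may be technical.

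An adjusted p of exactly 1 (977 genes) was read as none. A gene was called at an adjusted p under 0.05. A commonest fold change, 0.89, is shared by 377 genes, of which 0 were called by the deposited adjusted p-values, and says nothing of any one gene. The members and the 15 gene lists (239 of 305 symbols measured) were chosen with earlier results of these data known. Named genes were all members, the 4 of each list with the smallest p, every measured gene of the lists of intestinal factors, relatives and hydrolases, and the neighbours of CDX2 within 250 kb; single values of some list genes are not reported here, though the counts include them. For the intestinal surface and colon markers every called gene was named. Coordinates are 1-based from GENCODE release 29. Start windows are RefSeq's, matched by symbol, and are shown for 3 of the 7 measured members. Those of the members on chromosome 8 (GATA4, HNF4G and CDH17) were left out, and none was matched for VIL1. Motifs of CDX, GATA, HNF4, HNF1 and the TATA box were searched on both strands. Alternatives were a stricter threshold, another adjustment, a minimum fold, centring and other windows. The adjustment was tested on simulated data. Python 3.11.15, pandas 2.3.3, numpy 2.4.6 and matplotlib 3.10.9 were used.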

Additional observations from a re-analysis of the deposited data

How the results depend on the processing

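The calls and directions of CDX2, CDH17, SI, VIL1, GATA4 and HNF4G were the same under all 6 other ways of calling run (adjusted p under 0.01, Benjamini-Hochberg over all genes, unadjusted p, at least 2-fold, centring on the median of 0.06, and without values shared by 10 or more genes). Centring kept the deposited adjusted p, and no member shared its value with 10 or more genes. Those settings could therefore not change a member's call. All 6 reuse the deposited p-values, so they are not independent checks. GATA6 (0.49) was not called at a minimum of 2-fold. With that minimum 2052 genes were higher and 1804 lower over the whole table, and 8 neighbours of the members were higher and 5 lower, against 15 and 10 without it. Neighbours of CDX2 that were higher numbered 3 in a window of 100 kb, against 6 in 250 kb, and all measured ones were higher in both. Of the 6 within 250 kb, only 5 were higher at an adjusted p under 0.01 and 4 at a minimum of 2-fold. Over all members, windows of 100 kb gave 6 higher and 6 lower, and 500 kb gave 22 higher and 20 lower. Of the 30 counts by list and direction, 10 moved by over 1.5 times with the 2-fold minimum, 5 at 0.01, 2 with unadjusted p and 0 under the rest. In the 150 bases nearest the gene start, 11.5% of windows of genes called higher, 11% of those called lower and 19.1% of all held ATAAA.

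No paired analysis was possible because the labels do not say which sample and replicate number a library letter stands for, and for the same reason no replicate was left out in turn. Without levels per library, large fold changes of genes with few reads cannot be told from those of abundant genes other than by the deposited p.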
